A study of Mus musculus with 29 samples.

Results

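Nonclassical major histocompatibility complex (MHC) class I genes of the H2-Q, H2-T and H2-M regions were followed through a peritoneal dissemination model of gastric cancer. The set was H2-Q2, H2-Q4, H2-Q6, H2-Q7, H2-T22, H2-T23, H2-T24 and H2-M3, 8 of the 24421 genes in the deposited count table. They were found by symbol. The set was chosen by the measured level of H2-Q2: it was near zero in some tissue of mice given dual ICI and high where tumor was present. The contrast of dual ICI with untreated mice at day 35 is therefore described without a test.

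All mice were female C57BL/6J, 5 to 6 weeks old, and carried YTN16, a mouse gastric cancer line placed in the peritoneal cavity. Bulk RNA-seq was made from peritoneum, labelled as tumor tissue, in 29 libraries of 1 mouse each. At day 21 there were 5 untreated mice and 5 mice given dual ICI, the combination of anti-PD1 (10 mg/kg) and anti-CTLA4 (5 mg/kg) antibodies. The library identifiers number these dual ICI mice with gaps and the untreated mice without gaps. Whether and how other mice of that series were left out was not given in the sources used here. At day 35 there were 5 untreated, 5 anti-PD1, 4 anti-CTLA4 and 5 dual ICI mice. By the study's account, 1 anti-CTLA4 mouse died before autopsy and was excluded. Untreated mice received vehicle. By the study's schedule, mice kept to day 35 were also injected from day 21 on. The graft is 1 cell line. By the study's methods, the stripped peritoneum was used whether or not it bore nodules. A library therefore holds the host's peritoneum and body wall, together with tumor where nodules were present.

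Class I molecules stand at the cell surface as heavy chains paired with beta-2 microglobulin. The classical members H2-K and H2-D vary widely between strains and show peptides to CD8 T cells, whereas the nonclassical members vary little and often serve a special ligand or receptor. H2-T23 encodes Qa-1, which shows leader peptides of classical class I molecules to the CD94/NKG2A receptor of NK cells and T cells. H2-M3 shows N-formylated peptides of bacterial or mitochondrial origin. H2-Q7 encodes a form of Qa-2, and H2-T22 is bound by receptors of some gamma delta T cells. Many class I genes are induced by interferon gamma.

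All 8 genes lie on chromosome 17 in GRCm38 (mm10) with GENCODE vM21. H2-Q2 is at chr17:35342242-35346762, H2-Q4 at chr17:35379617-35385290 and H2-M3 at chr17:37270220-37274484, all on the plus strand. H2-T23 is at chr17:36029773-36032855 and H2-T24 at chr17:36005695-36020560, both on the minus strand. The RefSeq promoter table (GRCm38.p6) held a window for 7 of the 8 genes and none for H2-T24. The stretches upstream of every annotated start are shown for H2-Q2, H2-Q4 and H2-M3, 3 genes that rose at day 21, with 30 bases around an element of H2-T23. Capitals mark TTTCACTT, the core of the interferon consensus sequence of class I genes, or TTTCNNTTTC, an element bound by interferon regulatory factors (reverse GAAANNGAAA).
H2-Q2, chr17:35342057-35342241, plus strand: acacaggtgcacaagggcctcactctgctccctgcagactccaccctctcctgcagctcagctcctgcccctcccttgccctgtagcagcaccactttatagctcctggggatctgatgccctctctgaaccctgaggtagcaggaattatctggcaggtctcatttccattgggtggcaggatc
H2-Q4, chr17:35379367-35379616, plus strand: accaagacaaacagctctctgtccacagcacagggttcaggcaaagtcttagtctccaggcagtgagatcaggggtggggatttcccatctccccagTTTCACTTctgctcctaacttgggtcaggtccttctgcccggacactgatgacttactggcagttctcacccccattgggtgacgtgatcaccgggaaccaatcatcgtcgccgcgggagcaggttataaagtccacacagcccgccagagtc
H2-M3, chr17:37269984-37270219, plus strand: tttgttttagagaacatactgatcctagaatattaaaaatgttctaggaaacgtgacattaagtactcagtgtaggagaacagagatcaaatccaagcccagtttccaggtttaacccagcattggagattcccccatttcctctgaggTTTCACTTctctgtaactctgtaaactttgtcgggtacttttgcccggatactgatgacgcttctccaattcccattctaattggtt
H2-T23, chr17:36032806-36032835, minus strand: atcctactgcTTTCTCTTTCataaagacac

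Over the 250 bases before the RefSeq start, both strands, TTTCACTT was found in H2-Q4 (first base at -153), H2-M3 (-101), H2-Q6 (-152), H2-Q7 (-113) and H2-T22 (-191). The same 8 letters occurred in 1.36% of the 32851 RefSeq promoter windows. TTTCNNTTTC was found in H2-T23 at -124 and in H2-T22 at -191, where it overlaps TTTCACTT, against 2.98% of all windows. H2-Q2 held neither string of letters. In a global alignment, the 250 bases of H2-Q2 matched those of H2-Q4 at 158 positions (63.2%). By the same measure, H2-Q4 and H2-Q6 matched at 208 (83.2%). The RefSeq start of H2-T23 lies inside its GENCODE gene, so 154 of its 250 bases, the marked element included, belong to the gene there.

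Of the 8 genes, 5 carried counts that could be compared: H2-Q2, H2-Q4, H2-T23, H2-T24 and H2-M3. H2-Q6 and H2-Q7 were at 0 counts in all 29 libraries, and H2-T22 had 2 counts in all, 1 in anti-CTLA4 library 3 and 1 in dual ICI library 5 of day 35. A count of 0 allows up to 3 counts, which is between 0.0802 and 0.155 CPM (counts on a common scale of TMM-adjusted library totals) for a library here. The neighbouring rows H2-Q8, H2-Q9 and H2-T9, symbols that GENCODE vM21 does not list, had 4, 0 and 0 counts. As a measure of likeness to other genes, 5.99% of the 150-base windows in H2-Q6 transcripts also occurred in another gene's transcripts, as did 5.9% for H2-Q7 and 22.3% for H2-T22. The share was 2.56% for H2-Q2 (with H2-Q1), 9.87% for H2-Q4 (with Gm11131), 0.331% for H2-T23, and 0% for H2-T24 and H2-M3. Only GENCODE vM21 transcripts were compared, so likeness to H2-Q8, H2-Q9 and H2-T9 is not in these shares. On the opposite strand, A930015D03Rik overlaps 1003 of the 3414 exon bases of H2-T22 (29.4%) and had 2250 counts, and Gm11131 overlaps 496 of the 2596 exon bases of H2-Q4 (19.1%). The strand setting of the counting was not given in the sources used here. Whether shared reads set the rows at 0 was not tested, and their 0 is not read as lack of expression.

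Levels of different genes are compared per length, as mean CPM per kb of exon. H2-Q4 and H2-T23 were the most abundant of the 5 genes in every group, followed by H2-M3, while H2-T24 and H2-Q2 were lowest. In untreated mice at day 21, H2-Q4 was at 42.2 ± 7.88 (SD, n = 5) CPM per kb and H2-T23 at 35.6 ± 5.52, neighbours whose difference was within their spread. H2-M3 was at 9.21 ± 1.02, H2-T24 at 4.50 ± 1.15 and H2-Q2 at 1.61 ± 0.541 CPM per kb in those mice. H2-T24 and H2-Q2 changed places between groups: H2-Q2 was at 4.99 ± 1.31 and H2-T24 at 4.66 ± 0.697 CPM per kb under dual ICI at day 21, a difference within their spread. For scale, the classical gene H2-K1 was at 293 ± 66.9 CPM per kb in untreated and 465 ± 94.8 in dual ICI mice at day 21. Across the 29 libraries H2-Q4 spanned 3.50-fold (59.5 to 209 CPM), H2-T23 3.69-fold, H2-M3 3.01-fold and H2-T24 4.59-fold, whereas H2-Q2 ran from 0 to 16.8 CPM.

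**Figure D1:**
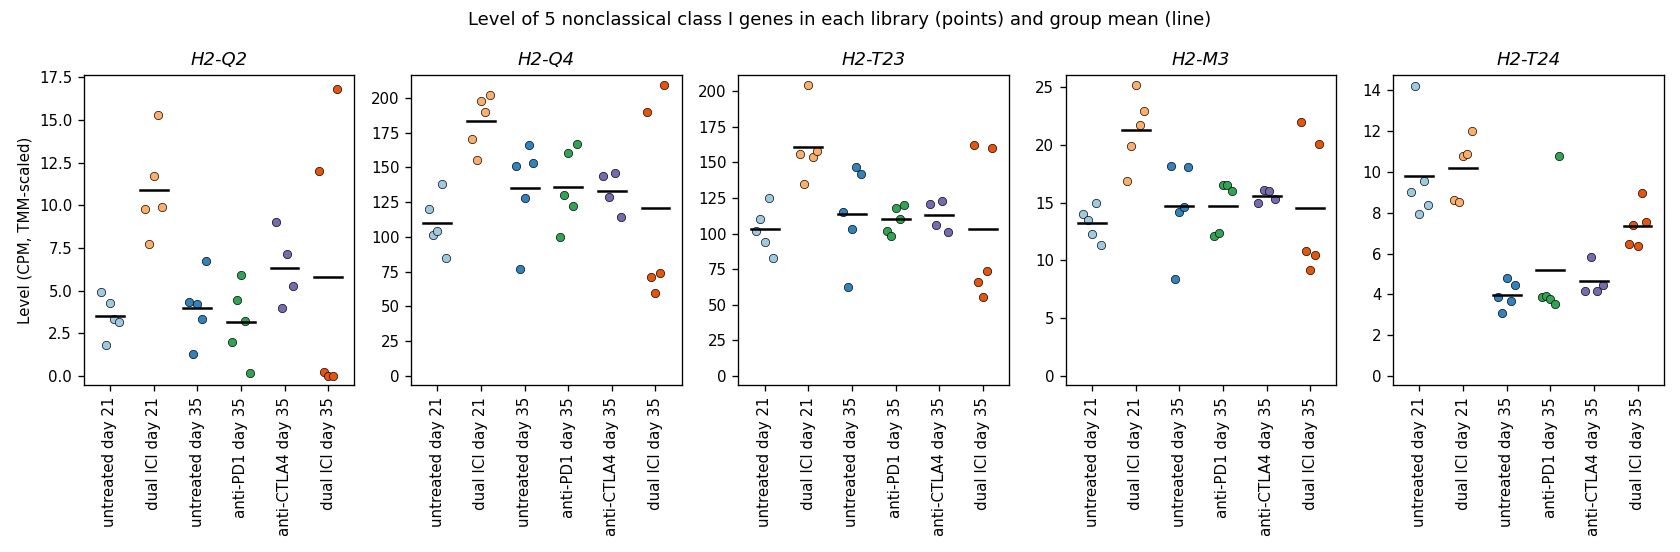
Level of H2-Q2, H2-Q4, H2-T23, H2-M3 and H2-T24 in CPM (vertical axis, TMM-scaled, a separate linear axis per gene) in each library (points) of the 6 groups, with the group mean (line). The dual ICI mice lie above the untreated mice at day 21 for all genes but H2-T24, and the dual ICI libraries of day 35 lie apart from each other for all genes but H2-T24.

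H2-Q2, H2-Q4 and H2-M3 rose under dual ICI relative to untreated mice at day 21, by 3.12-fold, 1.68-fold and 1.62-fold. H2-T23 was 1.58-fold higher and missed the threshold, and H2-T24 was at 1.04-fold. This comparison asks how the tissue differed under the combination at the earlier time point. The rule that chose the genes names no contrast at this day, but it rests on H2-Q2 being high where tumor was present. Earlier results of these data were also known, so the test is not taken as independent of that choice. Of the 15503 genes tested, 89 passed an adjusted p of 0.05 (0.574%), 73 of them higher (0.471%). Of the 5 genes of the set that passed the filter on low counts, 3 were among those 73.

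H2-Q2 was at 4.91, 1.82, 4.29, 3.36 and 3.15 CPM in untreated libraries 1 to 5 of day 21. Under dual ICI it was at 9.79, 7.72, 11.7, 15.3 and 9.90 CPM. Every dual ICI library lay above every untreated library, as did those of 1.83% of all genes tested. The log2 fold change was 1.64 ± 0.27 (SE) with an adjusted p of 0.0260 by edgeR's quasi-likelihood test.

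H2-Q4 was at 120, 101, 104, 138 and 84.6 CPM in the untreated libraries and at 170, 155, 198, 190 and 202 CPM in the dual ICI libraries. The groups did not overlap (log2 fold change 0.75 ± 0.14, edgeR adjusted p = 0.0444). H2-M3, which presents N-formylated peptides, was at 14.0, 13.5, 12.3, 15.0 and 11.3 CPM without treatment. It was at 16.9, 19.9, 25.2, 21.7 and 22.9 CPM with dual ICI, again without overlap (0.69 ± 0.13, edgeR adjusted p = 0.0478). H2-T23, the gene of Qa-1, was at 102, 110, 94.0, 125 and 83.0 CPM in untreated and at 156, 135, 204, 154 and 158 CPM in dual ICI mice. Its groups did not overlap either, yet the adjusted p was 0.0715 (edgeR, log2 fold change 0.66 ± 0.14). The adjusted p of DESeq2 was 0.00151.

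H2-T24 behaved otherwise: it was at 9.00, 14.2, 7.93, 9.57 and 8.39 CPM in untreated and at 8.64, 8.54, 10.8, 10.9 and 12.0 CPM in dual ICI libraries. These ranges overlapped, and the log2 fold change was 0.06 ± 0.19 (edgeR adjusted p = 0.968). A difference between H2-T24 and the other genes was not tested.

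The day 21 calls rest on few mice. The adjusted p of H2-Q2 rose to between 0.0525 and 0.0913 when untreated library 1, 3, 4 or 5 or dual ICI library 3 or 5 was left out, with log2 fold changes of 1.61 to 1.79. H2-Q4 stayed under 0.05 only without dual ICI library 2, and H2-M3 only without dual ICI library 1. In a fit of all 29 libraries none of the 3 passed (edgeR adjusted p of 0.265 to 0.783).

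**Figure D2:**
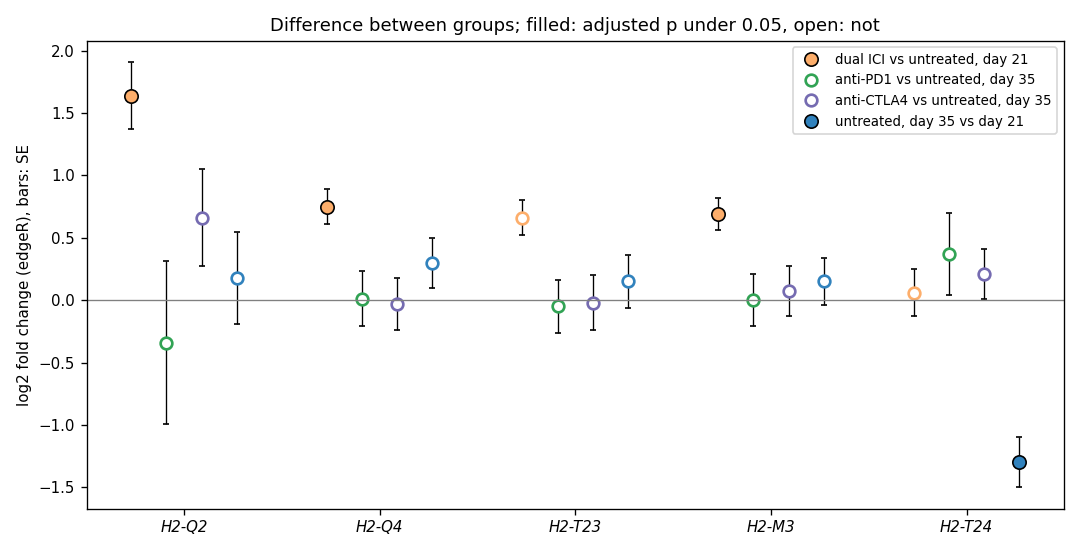
Log2 fold change (vertical axis, bars: SE) of each of the 5 genes in 4 comparisons. H2-Q2, H2-Q4 and H2-M3 pass the threshold for dual ICI at day 21 and H2-T24 for day 35 against day 21 in untreated mice, where it sits at -1.30, and all other points are open.

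Other genes of the class I route moved in the same comparison. Of 13 genes for peptide supply and loading, 4 rose and none fell, and all 13 log2 fold changes were above 0 (median 0.48, against 0.0244 over all genes tested). Psmb9, a subunit of the immunoproteasome that cuts peptides, rose from 25.3 ± 4.00 (SD, n = 5) to 54.2 ± 9.36 CPM (log2 fold change 1.10 ± 0.15, edgeR adjusted p = 0.012). Psmb8 (0.95 ± 0.16), Psmb10 (0.64 ± 0.12), subunits of the same particle, and Tap1 (0.99 ± 0.19), a subunit of the peptide transporter into the endoplasmic reticulum, rose too. Of the classical heavy chains and their light chain, 0 of 3 passed: H2-K1 was at 0.67 ± 0.20, B2m at 0.66 ± 0.24 and H2-D1 at 0.50 ± 0.18 on the log2 scale. The unadjusted edgeR p was under 0.05 for all 3, as for 10.7% of all genes tested. Those log2 fold changes are close in size to those of H2-Q4, H2-T23 and H2-M3.

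Among 7 transcription factors of class I genes, 0 passed. Irf1 was at 0.72 ± 0.20, Nlrc5, the class I transactivator, at 0.79 ± 0.28, and Irf2 at 0.14 ± 0.11 on the log2 scale. Of the 16 genes in the list of interferon gamma and its targets, 2 rose, the GTPases Igtp (1.35 ± 0.23) and Iigp1 (1.63 ± 0.32), and the median was 0.99. Of the 12 listed receptors of class I molecules, 11 were in the table and 8 were tested. Cd8a and Cd8b1, the chains of the CD8 coreceptor, rose by 2.31 ± 0.35 and 2.53 ± 0.39 on the log2 scale, and the other 6 did not pass. Klrc1 and Klrd1, named here because they form the receptor of Qa-1, were at 1.47 ± 0.57 (edgeR adjusted p = 0.365) and 0.95 ± 0.44 (0.478), on mean levels of 1.79 and 2.88 CPM under dual ICI. Of 32 other nonclassical class I genes, 11 were tested and 0 passed, with a median of 0.18. The most abundant of them were Fcgrt, the neonatal Fc receptor, at 0.18 ± 0.19, Hfe at 0.18 ± 0.16, Mr1, which presents vitamin B metabolites, at 0.02 ± 0.15, and Procr at -0.42 ± 0.29. H2-Q5, picked after its value was seen, lies in the same region as H2-Q4 and was at 0.94 ± 0.20 (edgeR adjusted p = 0.0698).

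The counts in these lists depend on the tool. DESeq2 was run on all genes with a count. It called 324 of the 16501 genes to which it gave an adjusted p higher in this comparison (1.96%). It called 8 of the 13 genes of peptide loading, 13 of the 16 interferon gamma genes, 2 of the 7 transcription factors (Irf1 among them) and, of the classical genes, H2-K1. It also called 5 receptors (Cd8a, Cd8b1, Klra3, Lilrb4a and Pirb) and 5 other nonclassical genes (H2-Q5, H2-T3, H2-T10, H2-M2 and Gm8909), and none of the listed genes of these 6 lists lower. The genes in these brackets were named after their values were seen.

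**Figure D3:**
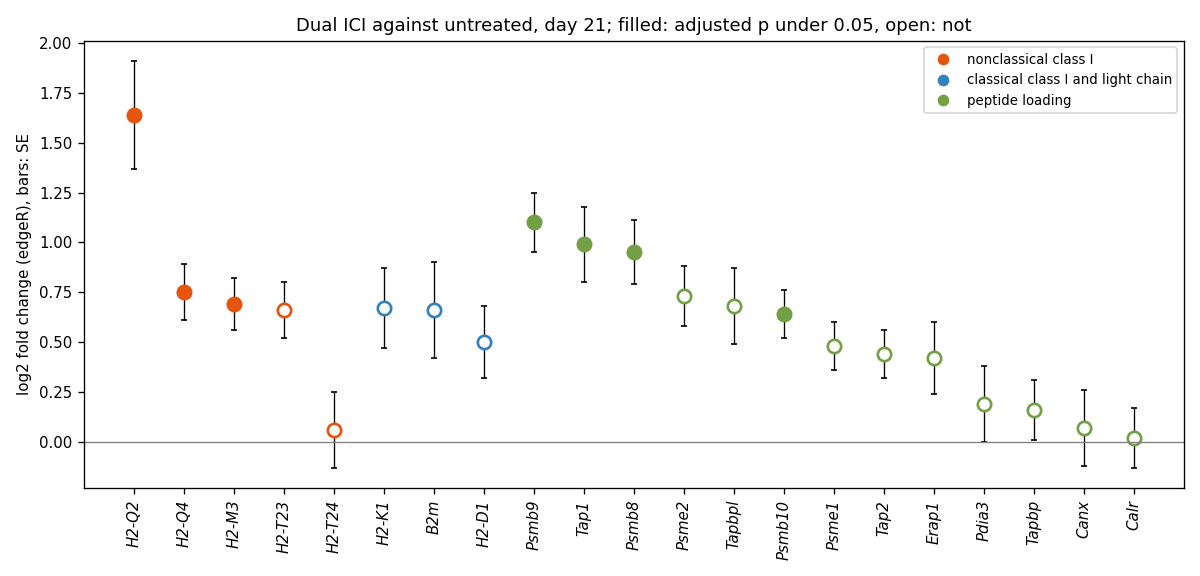
Log2 fold change (vertical axis, bars: SE) between dual ICI and untreated mice at day 21 for 5 nonclassical class I genes, 3 genes of classical class I and its light chain, and 13 genes of peptide loading. Filled points passed an adjusted p of 0.05, H2-Q2 is the highest at 1.64 and H2-T24 is near 0 at 0.06.

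Cell markers moved beside these changes. The summed level of 10 T cell genes was between 17.5 and 32.2 CPM in untreated and between 47.1 and 70.6 CPM in dual ICI mice at day 21, and 3 of the 10 rose (Cd3g, Cd247 and Zap70), or 8 of the 10 with DESeq2. The 10 macrophage genes summed to between 1250 and 1410 CPM against 1390 to 2500 CPM, with 0 called, or 2 (Adgre1 and C1qb) with DESeq2. The 5 adipocyte genes summed to between 373 and 697 CPM in untreated and between 143 and 429 CPM in dual ICI mice. Their median log2 fold change was -0.92, and none was above 0. Of the 5, 4 had an unadjusted edgeR p under 0.05, against 10.7% of all genes tested, and 0 were called by edgeR. DESeq2 called 3 lower (Adipoq, Plin1 and Lep). The summed levels of the 21 gastric epithelium genes, which mark the tumor, overlapped between groups (980 to 2880 and 1070 to 3160 CPM). Of the 17 tested, 1 was called lower by edgeR, against 16 of all 15503 genes tested, and DESeq2 also called 1 lower. The 19 skeletal muscle genes overlapped as well (73000 to 182000 and 64100 to 254000 CPM). The part of these cell markers in the levels of the class I genes was not tested. In bulk tissue fewer cells of a type and less RNA per cell cannot be told apart.

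Neither single antibody gave a call for any of these genes against untreated mice at day 35, and both comparisons share the same 5 untreated mice. With anti-PD1, 0 of 15640 genes passed edgeR's test (0%), 205 had an unadjusted p under 0.05, and DESeq2 also called 0. The study counted a mouse of that group as cured, so by its account the group was of mixed outcome. With anti-CTLA4, 0 of 15781 passed (0%), 128 had an unadjusted p under 0.05, and DESeq2 called 0.

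In untreated mice at day 35, H2-Q2 was at 4.32, 1.30, 4.19, 3.34 and 6.72 CPM. It was at 1.99, 4.43, 5.89, 3.21 and 0.155 CPM with anti-PD1, where library 5 held 3 counts, and at 9.02, 4.00, 7.13 and 5.26 CPM with anti-CTLA4. The ranges overlapped, with log2 fold changes of -0.34 ± 0.65 for anti-PD1 and 0.66 ± 0.39 for anti-CTLA4 (edgeR adjusted p = 1 for both). With each library left out in turn, the anti-PD1 value stayed between -0.68 and -0.0466.

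H2-Q4 was at 151, 76.6, 128, 166 and 153 CPM in untreated mice, at 100, 130, 160, 122 and 167 CPM with anti-PD1 and at 144, 129, 146 and 114 CPM with anti-CTLA4. H2-T23 was at 115, 62.6, 103, 147 and 142 CPM untreated, at 102, 98.5, 118, 110 and 120 CPM with anti-PD1 and at 121, 106, 123 and 101 CPM with anti-CTLA4. H2-M3 was at 18.2, 8.38, 14.2, 14.6 and 18.1 CPM untreated, at 12.1, 12.4, 16.5, 16.5 and 16.0 CPM with anti-PD1 and at 15.0, 16.1, 16.0 and 15.3 CPM with anti-CTLA4. Untreated library 2 was the lowest of the untreated mice for all 3 genes, and it also had the lowest share of gastric epithelium counts of that group (0.106%) and the highest share of skeletal muscle counts (21.9%). The 6 log2 fold changes of these 3 genes lay between -0.05 and 0.07, each with an SE of 0.20 to 0.22.

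H2-T24 was at 3.89, 3.09, 4.81, 3.66 and 4.46 CPM in untreated mice at day 35, and at 4.18, 5.83, 4.16 and 4.44 CPM with anti-CTLA4. With anti-PD1 it was at 3.86, 3.91, 3.79 and 3.53 CPM in libraries 1 to 4 and at 10.8 CPM in library 5. That library stands apart: its gastric epithelium genes took 0.00560% of counts, against 0.374% to 0.515% in the other 4, and its skeletal muscle genes took 22.8%. The labels do not say whether it came from the mouse of its group that the study counted as cured. The log2 fold changes were 0.37 ± 0.33 and 0.21 ± 0.20 (edgeR adjusted p = 1 for both). Without library 5 the anti-PD1 value was -0.0897.

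Under dual ICI at day 35 the 5 libraries fell apart into libraries 1 and 5 on one side and libraries 2, 3 and 4 on the other. This is the contrast for which the genes were chosen, so its values are a description only. The labels do not say which of these mice were cleared of nodules. The study counted dual ICI mice 2, 3 and 4 of its heatmap as cured at this time, and mice 1 and 5 as uncured. The labels do not state that these mouse numbers are the library numbers. Groups here follow the labels, so the group was kept whole. H2-Q2 was at 12.0 and 16.8 CPM in libraries 1 and 5, above all other libraries of day 35, and at 0.256, 0 and 0 CPM in libraries 2, 3 and 4, which held 5, 0 and 0 counts. H2-Q4 was at 190 and 209 CPM in the first pair and at 71.3, 59.5 and 73.9 CPM in the other libraries. H2-T23 was at 162 and 160 against 65.9, 55.3 and 73.6 CPM, and H2-M3 at 22 and 20.1 against 9.21 to 10.8 CPM. Libraries 1 and 5 exceeded the untreated mice of day 35 for all 4 genes, whereas libraries 2, 3 and 4 overlapped the untreated range for H2-T23 and H2-M3 and lay below it for H2-Q2 and H2-Q4. Libraries 1 and 5 exceeded all untreated mice for 9.22% of all genes tested, and libraries 2, 3 and 4 lay below them for 26.9%. Nothing is read from these counts.

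H2-T24 did not follow this pattern. It was at 6.48, 7.42, 6.38, 8.96 and 7.53 CPM in dual ICI libraries 1 to 5, all above the 5 untreated mice of day 35, as for 0.725% of all genes tested. Its log2 fold change was 0.89 ± 0.18 with all 5 libraries, 0.81 with libraries 1 and 5 only, and 0.95 with libraries 2, 3 and 4 only. The other 4 genes had log2 fold changes of 0.54 ± 1.36 (H2-Q2), -0.16 ± 0.38 (H2-Q4), -0.14 ± 0.35 (H2-T23) and -0.02 ± 0.30 (H2-M3), with SE that carry the split within the group. The H2-Q2 value was -1.86 with the replicate number as a block and -0.38 without dual ICI library 5, and ran up to 0.86 with other libraries left out. Over all genes, 0 of 15588 passed edgeR's test (0%), 1071 had an unadjusted p under 0.05, and DESeq2 called 46.

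The share of gastric epithelium counts was 0.492% and 0.606% in dual ICI libraries 1 and 5 of day 35, and 0.00860%, 0.00396% and 0.00213% in libraries 2, 3 and 4. Of the 21 epithelial genes, 4, 5 and 7 were at 0 counts in libraries 2, 3 and 4. Skeletal muscle genes took 8.21% and 5.85% of counts in libraries 1 and 5, and 24.8%, 23.4% and 23.1% in the others. The 4 libraries with the smallest epithelial share, anti-PD1 library 5 among them, were the 4 lowest for H2-Q2 of all 29. H2-Q4 was at 167 CPM in anti-PD1 library 5, the highest of its group, while the other 3 of these libraries were the 3 lowest of all 29 for H2-Q4. The part of tissue content in these levels was not tested.

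**Figure D4:**
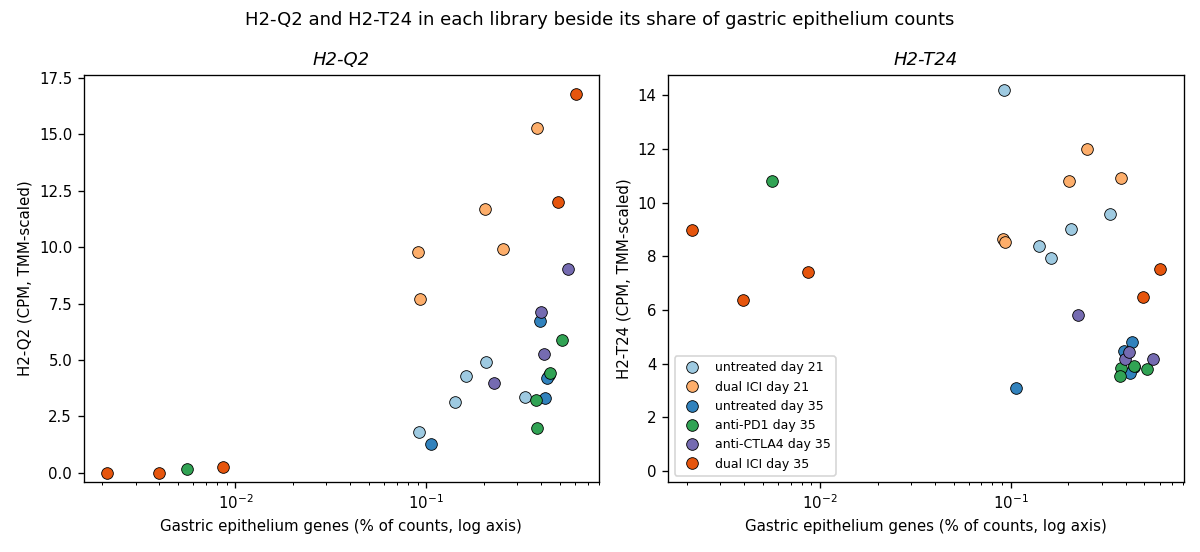
H2-Q2 (left) and H2-T24 (right) in CPM (vertical axes, linear) against the percentage of each library's counts in 21 gastric epithelium genes (horizontal axis, log scale), 1 point per library, colored by group. The 4 libraries with a share under 0.01% hold 0 to 0.256 CPM of H2-Q2, while their H2-T24 lies between 6.38 and 10.8 CPM.

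Between day 21 and day 35 in untreated mice, H2-T24 fell from 9.81 ± 2.51 (SD, n = 5) to 3.98 ± 0.675 CPM, and the other 4 genes did not pass the test. Its ranges, 7.93 to 14.2 and 3.09 to 4.81 CPM, did not overlap, as for 5.2% of all genes tested in that direction (log2 fold change -1.30 ± 0.20, edgeR adjusted p = 0.00620). Of 15604 genes tested, 1687 passed (10.8%), 714 of them lower (4.58%). With each library left out in turn the H2-T24 value stayed between -1.37 and -1.13 and its adjusted p between 0.00230 and 0.0190. H2-Q4 was at 0.30 ± 0.20 (edgeR adjusted p = 0.341, or 0.0425 without untreated library 2 of day 35), H2-Q2 at 0.18 ± 0.37, and H2-T23 and H2-M3 at 0.15 ± 0.21 and 0.15 ± 0.19. The libraries of the 2 days carry identifiers with different prefixes, so the day and whatever these prefixes stand for cannot be told apart. The 6 fibroblast genes summed to between 12400 and 20100 CPM at day 21 and between 5960 and 10600 CPM at day 35, with 4 of the 6 lower by edgeR's test. The gastric epithelium genes summed to between 980 and 2880 against 1340 to 4460 CPM (17 of 18 tested above 0, median log2 fold change 0.84), and Tff2 and Muc1 rose. Of 5 neutrophil genes S100a8 and S100a9 rose (median 0.87). The 16 interferon gamma genes summed to between 674 and 989 against 518 to 781 CPM. The part of these cell types and genes in the H2-T24 difference was not tested.

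The effect of dual ICI on each gene was also compared between the days, in 1 fit with an interaction term. Mice of day 35 had also been dosed from day 21 on, so day and number of doses cannot be told apart. The day 35 effect minus the day 21 effect was -1.11 ± 1.39 for H2-Q2, -0.92 ± 0.42 for H2-Q4, -0.81 ± 0.39 for H2-T23, -0.72 ± 0.33 for H2-M3 and 0.83 ± 0.25 for H2-T24 on the log2 scale. The day 35 arm holds the contrast that chose the genes, so no p is given. The H2-Q2 value was -2.01 with the replicate block, -2.02 without dual ICI library 5 of day 35 and up to -0.79 with other libraries left out. Over all genes 0 of 16021 passed edgeR's test (0%), 1648 had an unadjusted p under 0.05, and DESeq2 called 20.

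Across the 29 libraries, H2-Q4, H2-T23 and H2-M3 rose and fell together. Pearson's r of their log2 CPM, a description over libraries that share tissue content, depth and treatment groups, was 0.953 for H2-Q4 with H2-T23, 0.916 for H2-Q4 with H2-M3 and 0.927 for H2-T23 with H2-M3. H2-Q2 followed them less closely (0.753, 0.755 and 0.708), and without dual ICI libraries 2, 3 and 4 of day 35 those values were 0.511, 0.562 and 0.585. H2-T24 stood apart, with r of 0.128, 0.231 and 0.265 with the 3 genes and -0.071 with H2-Q2.

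Among the 16403 other genes, H2-K1 (r = 0.953), Tap1 (0.951) and Tap2 (0.941) were most like H2-Q4. H2-K1 (0.952), Tap1 (0.922) and the chemokine gene Ccl4 (0.918) were most like H2-T23, and Tap1 (0.915), H2-K1 (0.899) and Psmb9 (0.894) most like H2-M3. H2-Q2 was most like Vdr, the vitamin D receptor (0.961), the adhesion receptor gene Adgrg7 (0.958) and Trim31, a ubiquitin ligase gene (0.958). Within the 10 libraries of day 21 those 3 had r of 0.865, 0.716 and 0.779 with H2-Q2 and ranked 166, 737 and 427. H2-T24 was most like Rsad2, an interferon-induced antiviral gene (0.901), Tmem50b (0.899) and Trim30d (0.898). Within day 21 those 3 had r of 0.594, 0.499 and 0.748 with H2-T24 and ranked 609, 1167 and 146, and within the 19 libraries of day 35 they had 0.885, 0.824 and 0.829 and ranked 1, 17 and 12.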

How the data were processed

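RNA was made into unpooled libraries, 1 per mouse, with a NEBNext Ultra II kit and sequenced as paired reads of 150 bp. The deposited values are whole-number counts per gene symbol made by the authors, without normalization. The submitters' processing notes name STAR 2.7.0f and featureCounts 1.6.4, the study's methods STAR 2.5.2b and HTSeq 0.6.1, both on mm10; the annotation and strand setting were not given in the sources used here. Totals were 25989217 to 31219650 counts.

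Counts were tested with edgeR 4.0.16 in R 4.3.3 (TMM, filterByExpr, glmQLFit, glmQLFTest, two-sided, Benjamini-Hochberg over all genes tested, threshold 0.05), only the compared groups entering a fit. CPM use TMM-scaled sizes over all 29 libraries. Likeness is Pearson's r of log2 CPM (prior count 2) over genes passing the filter. Named genes were the 8 genes, the genes of 6 companion lists called at day 21 or otherwise up to 4 of the highest mean CPM, and the 3 most alike genes. Of the genes this rule names, 1 is not reported here. The genes and lists were chosen with earlier results of these data known. On simulated counts for dual ICI against untreated mice at day 21, 200 of 200 genes changed 4-fold were recovered among 15551 tested, with 12 false calls. The simulation gave all genes the same dispersion and used a larger change than any of the class I genes showed at day 21. It therefore checks the code and does not give the power for these genes. Lengths and positions came from GENCODE vM21, which matched 23376 of 24421 symbols (95.7%). Alternatives were DESeq2 1.42.0, RLE and upper-quartile scaling, skeletal muscle genes left out, other filters, all 29 libraries in the fit, a replicate block and each library left out. Floors cover counting error only, while SD and SE carry the spread between mice.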

Additional observations from a re-analysis of the deposited data

Results flagged for a closer look

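H2-T24 supplied all 3 values that stood far from the rest of their group by Dixon's criterion, among 30 combinations of gene and group examined, and chance flags about 1 group in 20. Anti-PD1 library 5 of day 35 was at 10.8 CPM, with the next library at 3.91 CPM. Untreated library 2 of day 21 was at 14.2 CPM, with the next at 9.57 CPM. Anti-CTLA4 library 2 of day 35 was at 5.83 CPM, with the next at 4.44 CPM. Skeletal muscle genes took 22.8%, 16.2% and 16.2% of the counts of these 3 libraries. Such shares were also found with low H2-T24. They took 21.9% in untreated library 2 of day 35, the lowest of all libraries for H2-T24 (3.09 CPM). In untreated library 5 of day 21 they took 17.1%, with H2-T24 at 8.39 CPM. The part of skeletal muscle in the H2-T24 level was not tested.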

How the results depend on the processing

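At day 21, dual ICI against untreated mice gave 89 genes, 502 with DESeq2, 8 with all 29 libraries in the fit and between 6 and 119 with each library left out. The 3 calls among the class I genes became 4 with DESeq2, 1 with upper-quartile scaling, 0 with all 29 libraries and between 0 and 2 with each library left out. In the fit of all 29 libraries the log2 fold changes of H2-Q2, H2-Q4 and H2-M3 were 1.64, 0.74 and 0.69 with edgeR adjusted p of 0.783, 0.425 and 0.265; the cause was not tested. H2-M3 was also lost without a filter (0.0547) and with at least 10 counts in every library (0.0509). With each library left out, H2-T24 lay between -0.0111 and 0.23.

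DESeq2 called 46 genes for dual ICI at day 35, 3168 for day 35 against day 21 in untreated mice and 20 for the interaction. Of the day 35 dual ICI group, libraries 2, 3 and 4 alone gave 7067 genes and libraries 1 and 5 alone 0 of 16156 with edgeR, from which nothing is read because H2-Q2 levels along this split chose the genes. For day 35 against day 21, each library left out gave 654 to 4915 genes, 4915 without untreated library 2 of day 35, between 1 and 2 of the class I genes, and -0.0919 to 0.40 for H2-Q2. For dual ICI at day 35, untested values changed sign with each library left out: -0.38 to 0.86 (H2-Q2), -0.45 to 0.00403 (H2-Q4), -0.35 to 0.0153 (H2-T23) and -0.21 to 0.10 (H2-M3). Small uncalled values of the single antibodies changed sign too. For anti-PD1, H2-M3 was at 0.00586 with DESeq2 and 0.00817 with RLE scaling, and H2-Q4 at -0.0061 with upper-quartile scaling. With each library left out, anti-PD1 values ran from -0.15 to 0.0849 (H2-M3), -0.13 to 0.10 (H2-Q4), -0.20 to 0.0558 (H2-T23) and -0.0897 to 0.48 (H2-T24), and anti-CTLA4 values from -0.0706 to 0.15 (H2-M3), -0.17 to 0.0547 (H2-Q4) and -0.17 to 0.0808 (H2-T23).

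The replicate numbers were not taken to pair the mice, since same-numbered libraries at day 21 correlated between -0.23 and 0.576 in their deviations from the group means. These numbers are those of the sample titles. The library identifiers number the dual ICI mice of day 21 differently, so the block has no known meaning there. With the replicate number as a block, day 21 gave 209 genes, H2-Q2 (edgeR adjusted p = 0.00683) and H2-Q4 (0.0405) stayed called and H2-M3 did not (0.067). The block moved H2-T23 and H2-M3 to 0.00206 and 0.0334 for anti-PD1, H2-Q4 and H2-T23 to 0.0636 and 0.12 for anti-CTLA4, and H2-Q2 from 0.54 to -1.86 for dual ICI at day 35 and from -1.11 to -2.01 for the interaction.

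Mean levels moved by more than their SD in 13 of 60 recomputed means. Without skeletal muscle genes in the scaling they were 213 (H2-Q4), 188 (H2-T23), 24.8 (H2-M3) and 11.8 CPM (H2-T24) for dual ICI at day 21, 119 (H2-T23) and 15.4 (H2-M3) for untreated at day 21, 153 (H2-Q4), 130 (H2-T23) and 17.9 (H2-M3) for anti-CTLA4, 126 (H2-T23) for anti-PD1 and 8.49 (H2-T24) for dual ICI at day 35. With plain totals, anti-CTLA4 was at 125 (H2-T23) and 17.1 CPM (H2-M3). Depth limits H2-Q6, H2-Q7 and H2-T22, with 0 to 2 counts over all libraries, and H2-Q2 in 4 libraries, with 0 to 5 counts each.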
